A study of Mus musculus with 6 samples.

Results

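Interstitial fibroblasts marked by Smoc2 and Cxcl14 were described in the mouse genioglossus, a muscle that protrudes the tongue and keeps the pharynx from narrowing. They were chosen from raw transcript counts, in unique molecular identifiers (UMIs), of single-cell barcodes in which 300 or more genes were detected. A member had at least 1 UMI of Pdgfra and at least 3 UMIs of Smoc2, Cxcl14, Myoc and Hmcn2 together. That sum had to be larger than the sum of Pi16, Pcolce2, Scara5 and Adgrd1. A member also had under 6 UMIs of Saa3 and Serpina3n, at most 1 of Tnmd and Thbs4, and 0 of Pecam1, Cdh5 and Ptprc. The rule found 891 members among 56309 barcodes.

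The study compared control mice with mice labelled OSA-4W, a model of obstructive sleep apnea (OSA) at 4 weeks. All libraries came from primary tissue of male mice, were made by 10x droplet sequencing and carried the label of batch 1; strain, age and the way the model was made are not given in the sources used here. Of 3 control and 3 OSA libraries, 4 matrices were used, from control replicate 2 and from OSA replicates 1, 2 and 3; control replicates 1 and 3 are not analysed here. Whether libraries came from different animals is not stated. The p-values therefore rest on a spread between libraries that may be technical, and the 1 control library was assumed to vary like the OSA libraries.

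Fibroblasts of skeletal muscle carry the receptor PDGFRA and build the connective tissue around fibres, vessels and nerves. Those that carry Pi16 and Dpp4 lie mainly in the adventitia of vessels and in fascia, while those with Smoc2, Col15a1 or Lum lie between the fibres. Muscle fibroblasts also secrete chemokines and complement proteins, and they respond to injury by changing matrix and inflammatory genes.

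The libraries held 12587 to 15714 barcodes with 300 or more genes, and any 2 of the 4 libraries used shared 52 to 67 barcode sequences, of which 0 were members in both. The samples are labelled as skeletal muscle cells, yet contractile genes of muscle fibres were low over all barcodes (Acta1, skeletal muscle actin, 19.6 to 61.6 CPM, counts scaled to 1e6 UMIs), and 6051 of 13698 control barcodes were endothelial, with at least 3 UMIs of Pecam1 and Cdh5 and 0 of Pdgfra and Ptprc.

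The members numbered 253 in the control library and 201, 215 and 222 in OSA replicates 1, 2 and 3. Their median depth was 7062 UMIs in the control library and 6195, 6950 and 6686 UMIs in the OSA libraries. A doublet caller marked 1 member of the control library and 5, 2 and 4 members of the OSA libraries.

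Interstitial fibroblasts made up 1.85% of control barcodes (exact Clopper-Pearson 95% interval 1.63 to 2.09, counting error only). They were 1.28% (1.11 to 1.47), 1.71% and 1.55% of the barcodes in OSA replicates 1, 2 and 3, with an OSA mean of 1.51% ± 0.217 (SD, n = 3). The difference of -0.334 percentage points had a two-sided p = 0.5 when library labels were permuted exactly, and 1 library against 3 cannot go below 0.25 in that test. As a share of all Pdgfra-positive stromal barcodes the members were 22.0% in the control library against 18.6% ± 2.62 (SD, n = 3) in the OSA libraries, which gave the same p of 0.5 in that exact permutation test. So all 3 OSA libraries lay below the control library, but no difference in the share was detectable with this design. Set against Pi16-high fibroblasts alone, the members were 34.8% of both in the control library and 43.3%, 39.6% and 30.8% in the OSA libraries, which lay on both sides of the control.

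The clauses of the rule removed unequal numbers. A control barcode that met every other clause lacked Pdgfra in 265 cases, had over 1 UMI of Tnmd and Thbs4 in 255 and had a UMI of Pecam1, Cdh5 or Ptprc in 186. The limit on Saa3 and Serpina3n, a pair of acute-phase genes, alone removed 0 barcodes from the control library and 8, 0 and 28 from OSA replicates 1, 2 and 3. The barcodes just inside the rule, with a sum of 3 UMIs of the 4 genes, held 190 CPM of Lum and 290 CPM of Col15a1 over the 4 libraries. Those just outside, with a sum of 2, held 51.2 and 213 CPM.

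Smoc2 encodes a matrix protein of the SPARC family that binds calcium. It stood at 1644 CPM in control members and at 1529, 1328 and 1502 CPM in the OSA libraries, as unscaled totals over the members, against 114 to 168 CPM in Pi16-high fibroblasts and 25.4 to 29.0 CPM in endothelial barcodes. Its level hardly moved between libraries. A UMI of Smoc2 was found in 94.1% of control members and in 91.5%, 88.4% and 87.8% of OSA members, against 7.39% of control endothelial barcodes, whose median depth was 3958 UMIs. When every barcode was thinned to 2000 UMIs and shallower ones were left out, the shares were 79.2% of the 240 control members kept and 3.65% of the 5124 control endothelial barcodes kept.

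Cxcl14, a chemokine, stood at 1909 CPM in control members and at 2458, 1606 and 2341 CPM in OSA members, and at 19.5 to 57.2 CPM in Pi16-high fibroblasts. It was found in 61.7% of control members, and in 50.8% after thinning, against 2.50% of thinned control endothelial barcodes. Cxcl14 was thus carried by fewer members than Smoc2. Myoc, the secreted glycoprotein myocilin, stood at 786 CPM in control members and at 758, 407 and 521 CPM in OSA members. Hmcn2, the matrix protein hemicentin, stood at 439 CPM against 498, 577 and 483 CPM in OSA. The control library had the highest Myoc and the lowest Hmcn2 of the 4 libraries. All 4 genes chose the members, so these values are a description. All 4 had a UMI in 85 of 253 control members, 3 of them in 97, 2 in 65 and 1 in 6.

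Lum, the small proteoglycan lumican of collagen fibrils, was the marker that the rule did not use. It stood at 229 CPM in control members and at 499, 206 and 265 CPM in OSA members, and was lower in Pi16-high fibroblasts of each library (121, 229, 92.5 and 124 CPM). Endothelial barcodes held 7.97 to 18.0 CPM. OSA replicate 1 had the highest Lum in both fibroblast groups. Of the 4 markers of the label, Lum alone is independent of the rule, and its level was above that of Pi16-high fibroblasts in all 4 libraries.

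**Figure D1:**
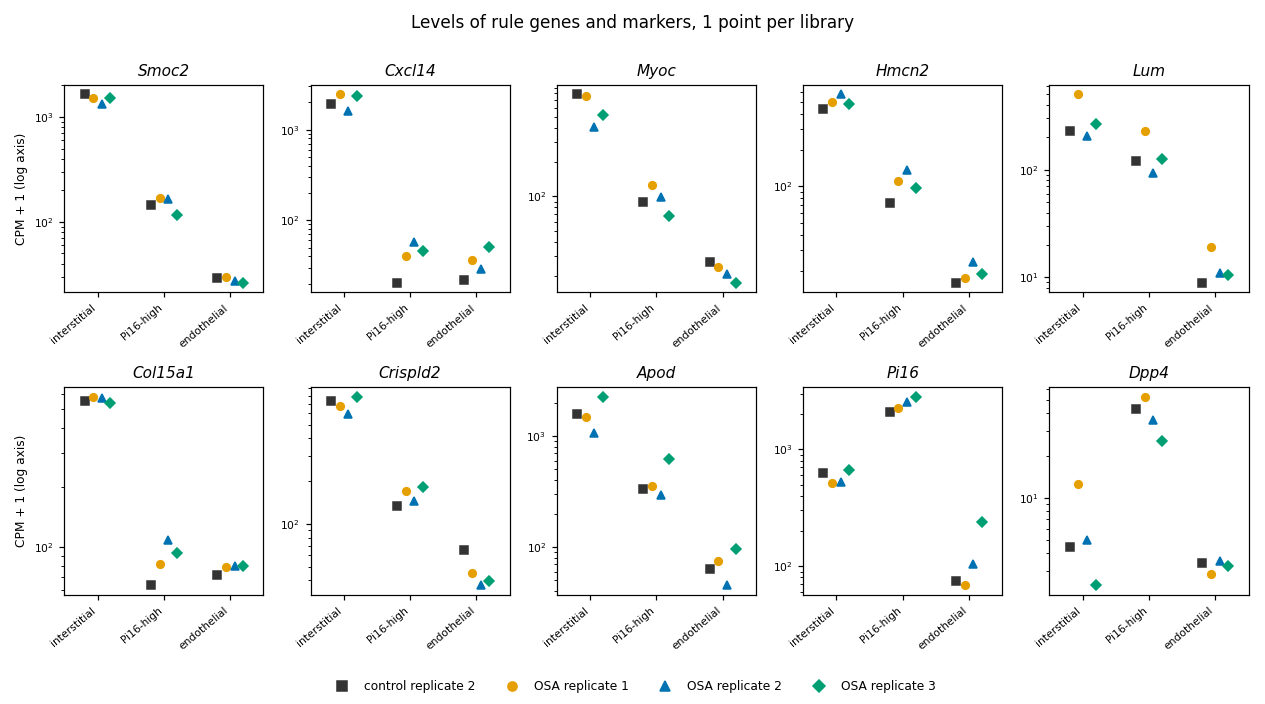
Level of rule genes and markers in interstitial fibroblasts, Pi16-high fibroblasts and endothelial barcodes, as CPM + 1 on log axes, with 1 point per library. Smoc2, Cxcl14, Myoc, Hmcn2, Col15a1, Crispld2 and Apod sit highest in interstitial fibroblasts in all 4 libraries, and Pi16 and Dpp4 in Pi16-high fibroblasts.

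Pi16-high fibroblasts, 1564 barcodes that met the same rule with the 2 sums of 4 genes exchanged, were the nearest group for comparison. Since the groups were split on these cells, the differences between them are a description with no test. Of the 16 interstitial markers outside the rule, 14 were higher in the members in all 4 libraries, with a median log2 ratio of 1.13. Of the 16 adventitial markers outside the rule, 15 were lower in all 4 libraries, with a median log2 ratio of -1.13. Over all 10333 genes with at least 5 CPM in either group, 2384 were higher and 1524 lower in all 4 libraries and the median was 0.07.

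Col15a1, a collagen chain found beside basement membranes, stood at 546 CPM in control members and 576, 568 and 534 CPM in OSA members, against 62.7 to 107 CPM in Pi16-high fibroblasts. The log2 ratio averaged 2.71 and ran from 2.40 to 3.10 over the libraries. Crispld2, a secreted protein, averaged a log2 ratio of 2.15, and Apod, a lipid-carrying lipocalin, 2.01. The 2 interstitial markers that were not higher in all libraries were Gdf10, a BMP family ligand (-0.16), and Fmod, fibromodulin, a proteoglycan of tendon and other dense tissue (-0.42). Of the adventitial markers, Dpp4, a surface peptidase, stood at 3.46 CPM in control members and 1.37 to 11.5 CPM in OSA members, against 24.5 to 51.4 CPM in Pi16-high fibroblasts. Igfbp6, a binding protein of insulin-like growth factors, was the exception, with a mean log2 ratio of -0.12 that was above 0 in 1 library. Pi16 itself was not absent from the members. It stood at 625 CPM in control members and 518, 523 and 670 CPM in OSA members, against 2070 to 2815 CPM in Pi16-high fibroblasts and 67.8 to 239 CPM in endothelial barcodes, which should lack it.

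Basement membrane genes leaned to the members, with 11 of 18 higher in all 4 libraries and a median log2 ratio of 0.85. Col4a1 and Col4a2, the chains of type IV collagen in most basement membranes, averaged log2 ratios of 1.43 and 1.34. In control cells Col4a1 stood at 1219 CPM in members and 392 CPM in Pi16-high fibroblasts. Hspg2, the proteoglycan perlecan, averaged 1.09, and Lama2, the laminin chain of muscle basement membrane, 0.78. Lama4 was lower in all 4 libraries (-0.20). Fibrillar and associated collagens did not lean either way, with 5 of 14 higher, 1 lower and a median of 0.07.

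The 10 genes with the largest ratios to Pi16-high fibroblasts included secreted factors and membrane proteins. Saa1, an acute-phase apolipoprotein, averaged a log2 ratio of 3.84. Adamtsl2, which binds fibrillin and latent TGF-beta binding protein, averaged 3.62, and Dlk1, an inhibitor of fat cell formation, 3.13. Inhba, the activin chain, averaged 2.41, Nmb, the peptide neuromedin B, 2.40, and Thbs1, thrombospondin, an activator of TGF-beta, 2.29. The others were Col15a1, Kcnk2, a potassium channel, Nrxn2, a neurexin, and Sorcs2, a sorting receptor. At the other end stood Cmah, an enzyme of sialic acid synthesis (-4.28), Cxcl13, a chemokine for B cells (-4.06), Sfrp2, a WNT antagonist (-3.80), Lgi1 (-3.76) and Opcml, a cell adhesion protein (-3.40). Vegfd, a lymphatic growth factor, averaged -3.32, and Ptx3, a pentraxin of innate defence, -3.05; Smpd3, Rcan2 and Stmn4 were the last of the 10. Of the 36 ribosomal protein genes, 36 were lower in the members in all 4 libraries, with a median of -0.32, and 17 of 24 immediate early genes were higher, with a median of 0.49.

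The members were not uniform. Split by which of the 4 interstitial genes had the most UMIs in a barcode, 316 members were led by Smoc2, 308 by Cxcl14, 123 by Myoc and 95 by Hmcn2, and 49 had a tie. Cxcl14 led 31.2% of control members and 35.8%, 34.4% and 37.4% of OSA members. Myoc led 20.9% of control members (exact Clopper-Pearson 95% interval 16.1 to 26.5) and 13.4%, 8.37% and 11.3% of OSA members, a mean of 11.02% ± 2.54 (SD, n = 3). Hmcn2 led 6.32% of control members (3.66 to 10.1) and 9.95%, 13.0% and 14.0% of OSA members, a mean of 12.3% ± 2.10 (SD, n = 3). The Myoc-led share was thus lower, and the Hmcn2-led share higher, in each OSA library than in the control library. Median UMIs of Hmcn2-led members were 2505 in the control library and 2470, 5391.5 and 4353 in the OSA libraries, against 6030 to 8041 for Myoc-led members.

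**Figure D2:**
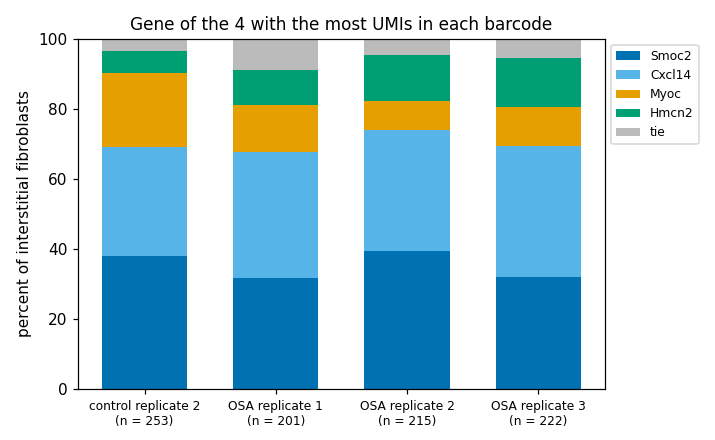
Percent of interstitial fibroblasts led by each of the 4 rule genes, by library, with ties in grey. The Myoc-led share is 20.9% in the control library and 8.37% to 13.4% in the OSA libraries.

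Genes that the rule did not use differed between these sets of members, which is again a description. Members led by Smoc2 were higher in Aldh1a2, which makes retinoic acid (74.3 against 31.0 CPM in the other 3 sets, means over the libraries), in Angptl7, an angiopoietin-like secreted protein (451 against 230 CPM), and in Gfra1, a receptor of the GDNF family (173 against 96.2 CPM). Members led by Cxcl14 were higher in Saa1 (122 against 13.9 CPM), in Spon1, the matrix protein spondin (161 against 35.5 CPM), in Dlk1 (100.2 against 23.5 CPM) and in Adamtsl2 (133 against 32.3 CPM). Saa1, Dlk1 and Adamtsl2 were the genes with the largest ratios of all members to Pi16-high fibroblasts, and within the members they lay mainly in those led by Cxcl14. Nmb stood at 452 CPM in that set against 167 CPM in the others, and Rbp4, the plasma carrier of retinol, at 66.7 against 21.4 CPM.

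Members led by Myoc were higher in Prg4, the lubricant proteoglycan lubricin (1767 against 389 CPM, with 638 to 4846 CPM over the libraries), in Ccn3, a matricellular protein (53.6 against 13.6 CPM), in Hmcn1, the other hemicentin (380 against 125 CPM), in Clu, the chaperone clusterin (72.2 against 27.3 CPM), and in Ifi27l2a, an interferon-induced gene (709.6 against 238 CPM). Meox2, a homeobox factor of limb muscle development, stood at 129 against 47.1 CPM. Members led by Hmcn2 were higher in Tenm4, a teneurin (72.2 against 11.5 CPM), in Abcb1b, a drug transporter (81.9 against 26.8 CPM), and in Tshz3, a zinc finger factor (213 against 98.7 CPM). The Hmcn2-led set was the smallest and shallowest, and the range of Tenm4 over its libraries was 31.3 to 167 CPM.

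The next comparison asked which genes differed between OSA and control within the interstitial fibroblasts. With UMIs summed per library, 50 of 10801 genes rose (0.463%) and 10 fell (0.0926%) at an adjusted p under 0.05 in edgeR's quasi-likelihood test, 0.556% in either direction, and 576 genes had an unadjusted p under 0.05. The rises included 4 complement genes, immune cell transcripts, the acute-phase genes Saa3 and Serpina3n that the rule limits, matrix enzymes and the chemokine Cxcl13. The falls included Rtl4, the proteoglycan gene Cspg4 and the growth factor gene Pgf. Over all genes tested, 5641 of 10801 were higher in OSA (52.2%), and the median log2 change was 0.02. All 3 OSA libraries lay on 1 side of the control library in 5074 of them. These shares are the base for the list counts that follow. The number of calls was 7 with DESeq2's test (Spp1, Tyrobp, Fcer1g, Cd52, Lgals3, Plac8 and Snhg1), 20 without robust estimation and 4 without members holding 3 or more immune marker UMIs, and was 114, 52 and 77 without OSA replicate 1, 2 or 3.

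Complement genes, whose products tag microbes and damaged cells, were the first group of rises. Of 12 tested, 9 were higher in OSA, 4 rose and 0 fell, and the median log2 change was 0.41. Over all genes tested, 52.2% were higher, 0.463% rose and 0.0926% fell. Serping1, the inhibitor of the first complement protease, stood at 1234 CPM against 1332, 1214 and 1812 CPM, a log2 change of 0.24 ± 0.33 (SE).

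C3 is the central protein of the complement cascade. It stood at 377 CPM in control members and at 612, 673 and 1465 CPM in OSA replicates 1, 2 and 3 (levels of members scaled by TMM; levels of other barcodes and of marker lists are unscaled totals), a mean of 917 ± 476 (SD, n = 3). All 3 OSA libraries lay above the control library and OSA replicate 3 was the highest. The log2 change was 1.28 ± 0.33 (SE, edgeR adjusted p = 0.0291). The C3 call was lost without OSA replicate 2 (log2 change 1.48, adjusted p = 0.158) and without OSA replicate 3 (0.77, adjusted p = 0.338), and with DESeq2's test. Without a limit on Saa3 and Serpina3n the log2 change of C3 was 1.95 with no call. Of the 2007 C3 UMIs of OSA replicate 3, 187 came from 1 member, and 148 of 222 members had at least 1. C3 in endothelial barcodes, which should hold little of it, moved the same way, from 39.9 CPM in the control library to 51.7, 62.8 and 228 CPM in the OSA libraries, and the part of free RNA in the members' change was not tested.

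The promoter of C3 is shown because its C/EBP motif and its acute-phase regulation are well described. The RefSeq table, of build GRCm38.p6, held the promoter of 1 of the 3 complement genes looked up, C3, C4b and Cfb. The 250 bases before the start lie on the minus strand of chromosome 17 (chr17:57228137-57228386), with capitals at the match to TTGCNNAA, a C/EBP motif searched on both strands:
C3 promoter: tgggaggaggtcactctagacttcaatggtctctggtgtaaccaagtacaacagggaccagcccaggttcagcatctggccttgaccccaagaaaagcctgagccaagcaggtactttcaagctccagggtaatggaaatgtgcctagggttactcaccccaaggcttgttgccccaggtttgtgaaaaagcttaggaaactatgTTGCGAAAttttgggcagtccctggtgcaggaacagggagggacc
The match, TTGCGAAA, lies 45 to 38 bases before the start, and does not overlap another motif searched. A match to TTGCNNAA was found in 9.57% of the 32536 promoters of this length. TTCNNNGAA, a STAT motif found in 7.04% of promoters, has no match in these letters. A match is a description of the sequence, not of binding in these cells. Cebpd, a C/EBP factor of the acute phase, stood at 2778 CPM in control members and 2708, 2010 and 2499 CPM in OSA members, and Cebpb at 766 against 644, 739 and 731 CPM.

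C4b, the complement component that is cleaved with C2, stood at 6.33 CPM in control members and at 25.0, 39.8 and 95.7 CPM in OSA members. The log2 change was 3.07 ± 0.54 (SE, edgeR adjusted p = 0.00045), from 11 UMIs in the control library and 31, 60 and 131 in the OSA libraries. Cfb, the protease of the alternative pathway, stood at 2.88 CPM against 21.0, 26.6 and 51.1 CPM, a log2 change of 3.48 ± 0.57 (adjusted p = 1.4e-06). Masp1, a protease of the lectin pathway, stood at 2.301 CPM against 6.46, 19.9 and 17.5 CPM, a log2 change of 2.64 ± 0.71 (adjusted p = 0.0353). In each of the 3 genes the control library was the lowest and rested on 4 to 11 UMIs. Masp1 had a log2 change of -0.10 when barcodes were thinned and the rule was applied again to the thinned counts. That choice gave 212 control members, of which 101 were members before thinning. It gave 210, 234 and 174 OSA members, of which 81, 78 and 80 were members before, so depth and choice of barcodes changed together. The Masp1 call was lost in 13 of 17 alternatives, among them those without OSA replicate 2 (2.37) or 3 (2.51). C4b in endothelial barcodes was 2.20 CPM in the control library and 5.16, 6.21 and 25.3 CPM in the OSA libraries, and Cfb 2.37 against 5.02, 3.64 and 21.0 CPM. Cfb was called in 12 and C4b in 10 of 17 alternatives. Both calls held without any 1 of the OSA libraries and were lost with DESeq2, with no limit on Saa3 and Serpina3n (log2 changes 4.19 for Cfb and 3.71 for C4b) and on thinned barcodes (3.41 and 1.48). The C4b call was also lost with a minimum of 6 UMIs of the 4 rule genes (2.89).

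**Figure D3:**
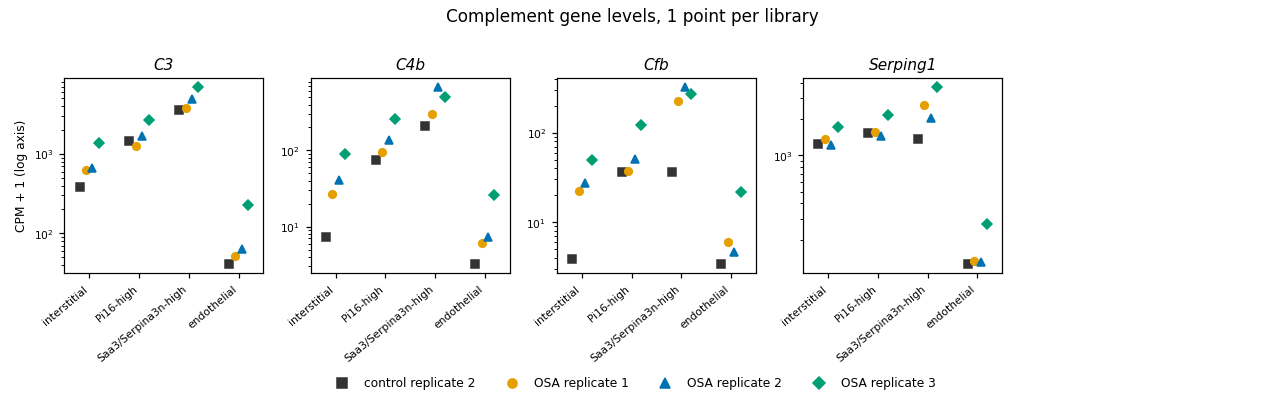
Level of 4 complement genes in interstitial, Pi16-high and Saa3 and Serpina3n-high stromal barcodes and in endothelial barcodes, as CPM + 1 of unscaled totals on log axes, with 1 point per library. C3, C4b and Cfb are lowest in the control library in interstitial fibroblasts, and C3 in endothelial barcodes runs from 39.9 to 228 CPM.

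The 2 acute-phase genes of the rule also moved, and are given as a description because the rule limits them. Serpina3n, a protease inhibitor, stood at 8.63 CPM in control members and 23.4, 45.1 and 68.6 CPM in OSA members. Saa3, a serum amyloid protein, had 2 UMIs in the control library and 20, 5 and 36 in the OSA libraries. The stromal barcodes that the limit set apart numbered 2 in the control library and 13, 17 and 91 in the OSA libraries. Of the 17 other acute-phase and innate defence genes tested with edgeR, 9 were higher, 0 passed and the median was 0.10, with 1 at an unadjusted p under 0.05 and 0 by DESeq2. Hp, haptoglobin, had 0 UMIs in control members and 22, 23 and 167 in OSA members, a level at least 29.9-fold higher when the control library is set at 3 counts, the limit that 0 counts allow, with an edgeR adjusted p of 1. That bound was 9.57-fold without OSA replicate 3. In endothelial barcodes Hp was 0.584 CPM in the control library and 7.94, 15.8 and 32.3 CPM in the OSA libraries.

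Transcripts of immune cells rose in the members. Tyrobp, an adaptor of myeloid receptors, stood at 4.03 CPM in control members and 42.0, 62.4 and 117 CPM in OSA members, a log2 change of 4.17 ± 0.49 (SE, edgeR adjusted p = 2.57e-13). Of 12 immune markers, 9 were tested, 9 were higher and 5 rose, namely Tyrobp, Fcer1g, an Fc receptor chain, Cd52, a leukocyte surface peptide, and C1qa and C1qb, which macrophages make. The median log2 change was 2.89. The summed level of the list was 71.5 CPM in control members and 263, 559 and 923 CPM in OSA members, and 161 CPM against 304, 313 and 1011 CPM in endothelial barcodes. Ptprc, the defining leukocyte gene, was at 0 in the members by the rule. The C1qa and C1qb calls were lost without OSA replicate 3 (1.64 and 1.42).

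In the OSA libraries most of these UMIs came from members that held 3 or more of them. Such members numbered 5 of 253 in the control library and 18 of 201, 44 of 215 and 132 of 222 in the OSA libraries. They held 12.1% of the members' immune marker UMIs in the control library and 61.1%, 82.8% and 92.5% in the OSA libraries. Single members weighed on the sums. The highest member held 132 of 319, 455 of 844 and 385 of 1342 of these UMIs in OSA replicates 1, 2 and 3. In the control library it held 3 of 124. In OSA replicate 1, 35 of 52 Tyrobp UMIs lay in 1 member. Without members holding 3 or more immune marker UMIs the log2 change of Tyrobp was 2.50 and no longer passed. Tyrobp is itself among those markers, so this setting removes members by the gene that it then tests, and a smaller change was built in. The Tyrobp call was kept in 13 of 17 alternatives. It was also lost with a minimum of 6 UMIs of the 4 rule genes (3.98) and with no limit on Tnmd and Thbs4 (2.80). With at most 1 UMI of Pecam1, Cdh5 and Ptprc it was lost as well (4.41). Among Pi16-high fibroblasts, 20 of 475 control barcodes and 340 of 498 of OSA replicate 3 held 3 or more.

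**Figure D4:**
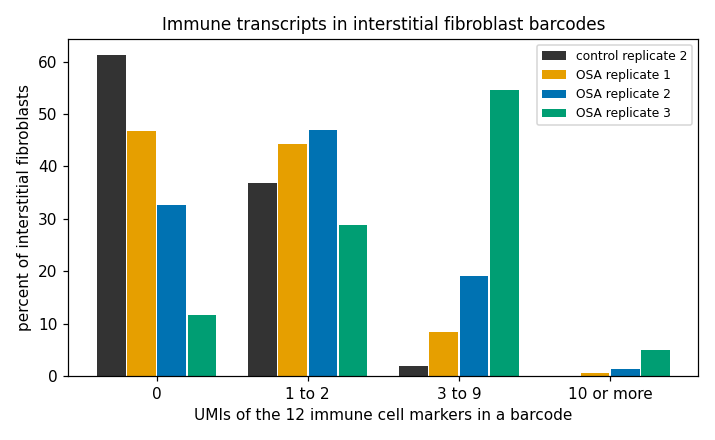
Percent of interstitial fibroblasts in each library by their number of UMIs of the 12 immune markers. Barcodes with 0 such UMIs number 155 of 253 in the control library and 26 of 222 in OSA replicate 3.

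Other rises were in genes that both macrophages and fibroblasts can express. Spp1, the secreted phosphoprotein osteopontin, had 3 UMIs in the control library and 67, 30 and 78 in the OSA libraries, a level 24.6 times higher (95% counting interval 8.3 to 121; edgeR adjusted p = 2.33e-10). In OSA replicate 1, 60 of its 67 UMIs lay in 1 member. Lgals3, galectin-3, stood at 8.63 CPM against 93.7, 71.0 and 146 CPM, a log2 change of 3.57 ± 0.42 (adjusted p = 2.21e-13), with 84 of 116 UMIs of OSA replicate 1 in 1 member. Single members thus weighed on both genes in OSA replicate 1. Plac8, a small cysteine-rich protein, stood at 5.75 CPM against 31.5, 69.7 and 79.6 CPM, a log2 change of 3.38 ± 0.47 (adjusted p = 1.41e-09). Its highest member held 10, 17 and 9 UMIs in the OSA libraries. Plac8 kept its call in 16 of 17 alternatives, and Lgals3, Snhg1, Plac8 and Cfb were the 4 genes past the threshold without members holding 3 or more immune UMIs. Srgn, the granule proteoglycan serglycin (log2 change 1.51), and H2-Eb1, an MHC class II chain (1.64), also rose, with H2-Eb1 at 13.8 CPM against 17.0, 65.1 and 46.0 CPM. The Srgn call was lost without OSA replicate 3 (1.09), without called doublets (1.08) and without members holding 3 or more immune UMIs (0.86), and the H2-Eb1 call without OSA replicate 2 (1.21).

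Cxcl13, which attracts B cells, stood at 4.60 CPM in control members and at 46.8, 34.5 and 22.6 CPM in OSA members. The log2 change was 2.88 ± 0.52 (SE, edgeR adjusted p = 2.54e-05), and Cxcl13 in endothelial barcodes stood at 6.60 CPM against 5.96, 9.88 and 6.36 CPM. In the members all 3 OSA libraries lay above the control library, while in endothelial barcodes they lay on both sides of it. The part of free RNA in the members' change was not tested. The Cxcl13 call was lost with DESeq2 and with a minimum of 6 UMIs of the 4 rule genes (1.68). It was also lost without members holding 3 or more immune marker UMIs (2.67) or a UMI of Saa3 or Serpina3n (1.22). Cxcl13 was also 1 of the genes highest in Pi16-high fibroblasts, at 465 CPM in the control library and 349, 446 and 227 CPM in the OSA libraries. It was the 1 gene past the threshold of 17 chemokines and cytokines tested, of which 8 were higher, with a median of -0.01. Ccl11, the eosinophil chemokine eotaxin, stood at 1617 CPM against 1444, 1122 and 1336 CPM, and Cxcl1, a neutrophil chemokine, at 1490 CPM against 973, 959 and 1083 CPM (log2 change -0.57 ± 0.31, SE). Sfrp2, another gene of Pi16-high fibroblasts, had 2 UMIs in control members and 28, 5 and 24 in OSA members, 12.04 times higher (95% counting interval 3.18 to 102; adjusted p = 0.00904). Sfrp2 was the 1 gene past the threshold of 13 WNT ligands and antagonists, and its call was lost without OSA replicate 1 (log2 change 3.07) or 3 (3.35).

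Enzymes and proteins of the matrix changed in part. Of 23 matrix proteases and inhibitors tested, 19 were higher and 2 rose, with a median log2 change of 0.22. Timp1, an inhibitor of metalloproteinases, stood at 32.8 CPM in control members and 41.2, 91.0 and 136 CPM in OSA members, a log2 change of 1.45 ± 0.35 (SE, edgeR adjusted p = 0.0182). Timp1 was not past the threshold without OSA replicate 2 (1.45) or 3 (1.03), and its log2 change was 3.01 with no limit on Saa3 and Serpina3n and 0.65 when members with a UMI of either were left out. Adamts4, which cleaves aggrecan and versican, stood at 18.98 CPM against 74.3, 45.2 and 51.1 CPM, a log2 change of 1.57 ± 0.38 (adjusted p = 0.0112). The highest Adamts4 was in OSA replicate 1 and the highest Timp1 in OSA replicate 3. Chst11, which sulfates chondroitin, stood at 21.3 CPM against 48.4, 73.0 and 111 CPM, a log2 change of 1.86 ± 0.36 (adjusted p = 0.000194), and in endothelial barcodes at 106 CPM against 95.3, 92.0 and 87.7 CPM. The Chst11 call was lost with DESeq2, on thinned barcodes (0.33) and with no limit on Tnmd and Thbs4 (0.98). Fmod stood at 14.95 CPM against 19.4, 53.8 and 57.7 CPM, a log2 change of 1.55 ± 0.40 (adjusted p = 0.0284). Fmod is also a tenocyte marker, and 6 of 6 tenocyte markers tested were higher, with a summed level of 110 CPM in control members and 135, 252 and 240 CPM in OSA members, and of 211 CPM against 308, 520 and 418 CPM in endothelial barcodes. With no limit on Tnmd and Thbs4 the log2 change of Fmod was 0.24, and on thinned barcodes it was 0.57, both with no call. The part of tenocyte transcripts in the Fmod result was not tested. Msc, a muscle and connective tissue transcription factor, rose by a log2 change of 1.43 ± 0.37 (20.7 CPM against 47.6, 53.8 and 65.7 CPM). Among the fits without 1 OSA library, the call of Adamts4 was lost without replicate 1 (1.33) and that of Msc without replicate 2 (1.46). That of Fmod was lost without replicate 2 (1.38) or 3 (1.31). Of 17 alternatives, Adamts4 was called in 9, Msc in 8, and Fmod and Timp1 in 6 each.

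Structural collagens did not pass. Of 13 fibrillar and associated collagens tested, 10 were higher and 0 passed in edgeR, with a median log2 change of 0.21, 0 at an unadjusted p under 0.05 and 0 by DESeq2. Col1a1 stood at 1100 CPM in control members and 1269, 1703 and 1995 CPM in OSA members (log2 change 0.59 ± 0.34, SE), and Col3a1 at 964 CPM against 1268, 1530 and 1622 CPM (0.61 ± 0.33). All OSA libraries lay above the control in both genes, and no rise was detected in either. Over all genes tested, 5074 of 10801 had the OSA libraries all on 1 side of the control. Of 16 basement membrane genes tested, 9 were higher, 0 passed, and the median was 0.03, with 1 at an unadjusted p under 0.05 and 0 by DESeq2. Col4a1 stood at 1216 CPM against 1079, 1539 and 1152 CPM. Of 20 myofibroblast and TGF-beta response genes, 9 were higher and 0 passed, with a median of -0.01, 5 at an unadjusted p under 0.05 and 0 by DESeq2. Dcn, the most used fibroblast proteoglycan marker decorin, stood at 11650 CPM in control members against 12753, 8043 and 10913 CPM.

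Lists on stress, oxygen and time of day gave no call in edgeR, and none of their genes was called by DESeq2. Of 22 hypoxia response genes 17 were higher, with a median log2 change of 0.30 and 0 at an unadjusted p under 0.05. Hk2, a hexokinase, stood at 710.3 CPM in control members against 621, 1154 and 1029 CPM, and Ldha, lactate dehydrogenase, at 209 CPM against 220.4, 267 and 301 CPM. Of 18 core clock genes 10 were higher, with a median of 0.07 and 0 at an unadjusted p under 0.05, and Dbp, a clock output factor, stood at 296 CPM against 333, 292 and 388 CPM. Of 24 immediate early genes 6 were higher, with a median of -0.17 and 2 at an unadjusted p under 0.05, and Fos stood at 9617 CPM against 10744, 6461 and 7325 CPM. Heat shock genes had a median of -0.19 (14 tested, 1 at an unadjusted p under 0.05), glucocorticoid response genes -0.17 (17 tested, 2), interferon-stimulated genes 0.02 (18 tested, 1) and unfolded protein response genes 0.17 (19 tested, 3). Irf1, an interferon-induced factor, stood at 1011 CPM against 660.4, 528 and 492 CPM, a log2 change of -0.85 ± 0.29 (SE).

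A ribosomal gene and a small nucleolar host gene were among the largest rises. Rpl39, a protein of the large ribosomal subunit, stood at 140 CPM in control members and 940.5, 821 and 438 CPM in OSA members, a log2 change of 2.39 ± 0.35 (SE, edgeR adjusted p = 2.65e-08). Snhg1, a noncoding host of small nucleolar RNAs, stood at 4.60 CPM against 71.1, 57.1 and 24.1 CPM, a log2 change of 3.43 ± 0.50, and Rpl22l1, a ribosomal protein paralog, rose by 1.44 ± 0.36. All 3 were highest in OSA replicate 1 and lowest, among the OSA libraries, in replicate 3. The same order was seen in endothelial barcodes, where Rpl39 went from 167 CPM to 770.4, 693 and 361 CPM and Snhg1 from 9.45 CPM to 33.4, 28.2 and 13.4 CPM. The 36 ribosomal protein genes of the list, which holds neither, were higher in 36 of 36 with 0 called by edgeR or DESeq2, 0 at an unadjusted p under 0.05, and a median log2 change of 0.24. Hba-a2, a haemoglobin chain of red cells, also rose (28.8 CPM against 79.1, 92.3 and 36.5 CPM), and 4 of 4 erythroid genes tested were higher. In endothelial barcodes Hba-a2 stood at 827 CPM against 1064, 1055 and 777 CPM, and its part as free RNA was not tested. The Hba-a2 and Rpl22l1 calls were lost without OSA replicate 1 (1.17 and 1.07) or 2 (1.01 and 1.47).

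The falls were fewer. Rtl4, a retrotransposon-derived gene, stood at 132 CPM in control members and 62.2, 24.6 and 40.9 CPM in OSA members, a log2 change of -1.64 ± 0.28 (SE, edgeR adjusted p = 6.6e-06). Rtl4 was among the genes highest in members led by Smoc2, and in endothelial barcodes it stood at 3.71 CPM against 1.36 to 1.59 CPM. It kept its call in 13 of 17 alternatives. Pgf, placental growth factor, stood at 93.2 CPM against 38.8, 27.9 and 58.4 CPM, a log2 change of -1.16 ± 0.30 (adjusted p = 0.0218). In endothelial barcodes Pgf stood at 14.5 CPM against 19.7, 13.8 and 27.6 CPM. Sorcs2 stood at 108 CPM against 46.0, 51.8 and 57.0 CPM and fell by 1.06 ± 0.29, and Spon1, a gene of the members led by Cxcl14, stood at 140 CPM against 93.7, 47.1 and 62.1 CPM and fell by 1.06 ± 0.28. The Pgf and Spon1 calls were lost without OSA replicate 2 (-0.92 and -0.83), and the Sorcs2 call without OSA replicate 1 (-0.99) or 2 (-1.05). Chordc1, a partner of the chaperone HSP90, fell by 1.31 ± 0.31, and H1f4, a linker histone, by 1.20 ± 0.31. Their calls were lost without OSA replicate 2 (-1.31 for Chordc1 and -1.19 for H1f4), and that of H1f4 also without replicate 3 (-0.82).

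Cspg4, the proteoglycan NG2 of pericytes and some fibroblasts, stood at 71.9 CPM in control members and 33.1, 27.2 and 24.8 CPM in OSA members, a log2 change of -1.34 ± 0.32 (SE, edgeR adjusted p = 0.0109). The call was lost without OSA replicate 2 (-1.30). The highest member held 4 UMIs of Cspg4. Of 11 mural cell markers tested 3 were higher, Cspg4 alone fell, and the median was -0.45. Rgs5, a defining pericyte gene, stood at 36.8 CPM in control members and 49.2, 33.9 and 27.0 CPM in OSA members. The list summed to 722 CPM in control members and 619, 399 and 472 CPM in OSA members with 0 of 12 genes at 0 in any library, and its part in the Cspg4 result was not tested. Cspg4 was also lower in endothelial barcodes, at 43.2 CPM against 25.1, 32.2 and 24.1 CPM.

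**Figure D5:**
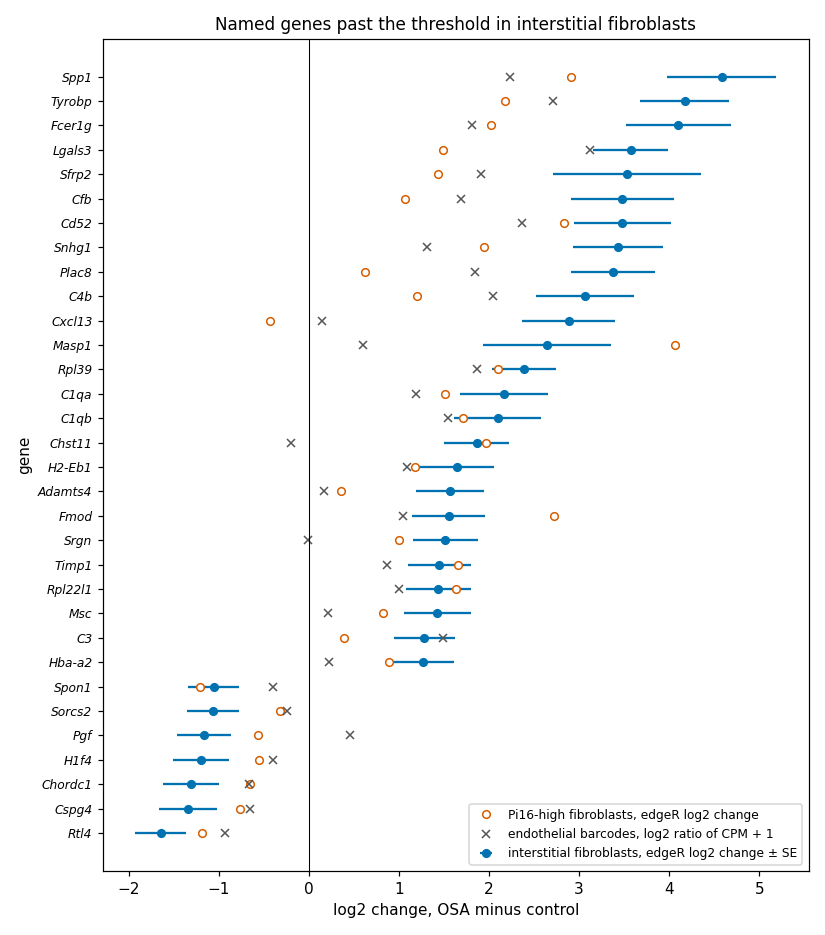
Log2 change of OSA minus control for the named genes past the threshold, with the edgeR estimate and its SE in interstitial fibroblasts, the edgeR estimate in Pi16-high fibroblasts and the log2 ratio of CPM + 1 in endothelial barcodes. Rpl39 and Tyrobp are above 0 in all 3 groups, while Cxcl13 is at 2.88 in interstitial and -0.43 in Pi16-high fibroblasts.

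Whether a change differed from that in Pi16-high fibroblasts was tested by the interaction of OSA with the fibroblast group, with library as a block. The difference was past an adjusted p of 0.05 in 31 of 11861 genes (0.261%), with 18 higher (0.152%) and 13 lower (0.11%) in interstitial fibroblasts. Pi16-high fibroblasts alone had 4 rises (0.0323%) and 2 falls (0.0161%) among 12403 genes, 0.0484% in either direction. The genes that differed included complement genes, chemokines and smooth muscle genes.

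Cxcl13 had the smallest adjusted p. It changed by 2.88 in the members and by -0.43 in Pi16-high fibroblasts, a difference of 3.31 ± 0.38 (log2, SE, edgeR adjusted p = 5.19e-09), although the 2 groups came nearer to each other in level. When barcodes were thinned to 2000 UMIs the difference was -1.27 with no call. The Cxcl13 difference was called in 9 of 14 alternatives. It was also not called with a minimum of 6 UMIs of the 4 rule genes (2.03) or at most 1 UMI of Pecam1, Cdh5 and Ptprc (2.79). The same held with under 3 immune UMIs (2.90) or no UMI of Saa3 and Serpina3n (1.34). Plac8 differed by 2.79 ± 0.47, C4b by 1.86 ± 0.38 (both with an adjusted p of 0.00487) and Cfb by 2.48 ± 0.54 (adjusted p = 0.00867), with Cfb not past the threshold without OSA replicate 2 (2.40). The C4b difference was called in 7 of 14 alternatives and was 0.32 on thinned barcodes, where the Cfb difference was 2.11, both with no call. The Plac8 difference was called in 11 of 14. It was not called on thinned barcodes (3.59), with under 3 immune UMIs (2.99) or with no UMI of Saa3 and Serpina3n (1.89). C3 differed by 0.86 ± 0.15 (adjusted p = 0.000162), from 1462 CPM in control Pi16-high fibroblasts against 1242, 1694 and 2650 CPM in OSA. The C3 difference was called in 8 of 14 alternatives and ran from 0.59 to 1.15 over them. The 3 complement genes were lower in interstitial than in Pi16-high fibroblasts in every library, and the gap was smaller in the OSA libraries. Cxcl9, an interferon-induced chemokine, changed by -0.05 in the members and -1.77 in Pi16-high fibroblasts, a difference of 1.72 ± 0.33 that was 0.57 with no limit on Tnmd and Thbs4.

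Contractile genes differed in the other direction. Myh11, smooth muscle myosin, stood at 85.1 CPM in control members and 75.1, 26.6 and 22.6 CPM in OSA members (log2 change -1.06), against a change of 0.48 in Pi16-high fibroblasts, a difference of -1.61 ± 0.26 (SE, edgeR adjusted p = 0.000133). Tpm2, a tropomyosin, changed by -0.86 in the members and 0.56 in Pi16-high fibroblasts (difference -1.43 ± 0.28). On thinned barcodes the Myh11 difference was -0.09, with no call. These are genes of mural cells, whose summed markers went from 395 CPM in control Pi16-high fibroblasts to 454 to 582 CPM in OSA and down in the members, and their part was not tested. Opcml, an adhesion gene of Pi16-high fibroblasts, differed by 1.89 ± 0.43, and Nav3, a neuron navigator, by 1.51 ± 0.36. The differences of Tpm2 (-1.47), Opcml (1.91) and Nav3 (1.13) were not past the threshold without OSA replicate 2, and those of Tpm2 (0.15) and Opcml (-0.44) changed sign with thinned barcodes. The number of genes that differed was 12 without OSA replicate 2 and 1 without members holding a UMI of Saa3 or Serpina3n.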

How the data were processed

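Single-cell libraries were deposited as raw UMI counts per gene and barcode over 33696 genes, made by the authors with Cell Ranger 9.0.1 per the file headers and with GRCm39 (mm39) per the submitters' processing notes. The annotation release and further filters are not given in the sources used here. The counts of members were summed per library, to between 1213413 and 1733713 UMIs, and CPM were computed from those sums. OSA was tested against control with edgeR 4.0.16 in R 4.3.3 (TMM, filterByExpr, robust quasi-likelihood, 2 residual degrees of freedom, Benjamini-Hochberg adjustment over all genes tested, threshold 0.05). The SE of a log2 change was its size divided by the square root of the F statistic. DESeq2 1.42.0 was an alternative test. The interaction test used sums per library and fibroblast group with library as a block. Doublets were called by Scrublet (scanpy 1.11.5, expected rate 0.1), and called doublets were left in. Intervals cover counting error only.

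Genes were named by rule: up to 15 rises and 15 falls with the largest log2 change among called genes whose mean log2 CPM reached 5 and whose OSA libraries lay on 1 side of the control, called members of 37 gene lists, up to 4 abundant members of a list, up to 10 interaction genes, and 10 genes per description of groups with at least 50 CPM. Rgs5, Hp, Pi16, Lama4, Irf1, Cebpd, Cebpb, C3 in the interaction and the values of marker sums were added after their values were seen. The members and lists were chosen with earlier results of these data known. On simulated counts of 10407 genes for the OSA comparison, the test recovered 38% and 34% of genes changed by 1 and -1 (log2), and 98% and 92% of those changed by 2 and -2, with 10 false calls. With no change simulated it made 5 calls. The changed genes were drawn only from genes above a minimum mean CPM over the libraries. Recovery of genes with lower counts was therefore not measured.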

Additional observations from a re-analysis of the deposited data

Results flagged for a closer look

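The OSA effect differed between interstitial and Pi16-high fibroblasts in the edgeR interaction test for the genes below, given as the log2 effect in interstitial minus that in Pi16-high fibroblasts with its SE and adjusted p. In all of them the 1 control library sets the base of both effects.

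Cxcl13 differed by 3.31 ± 0.38 (adjusted p = 5.19e-09), Plac8 by 2.79 ± 0.47 (0.00487) and Cxcl9 by 1.72 ± 0.33 (0.00148). The complement genes Cfb and C4b differed by 2.48 ± 0.54 (0.00867) and 1.86 ± 0.38 (0.00487). Opcml differed by 1.89 ± 0.43 (0.0172) and Nav3 by 1.51 ± 0.36 (0.0396). Myh11 differed by -1.61 ± 0.26 (0.000133) and Tpm2 by -1.43 ± 0.28 (0.0416).

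Hp differed by 8.29 ± 1.496 (0.00973), a fitted value that depends on the prior count and is no bound, since Hp had 0 UMIs in control members. In Pi16-high fibroblasts Hp stood at 18.0 CPM in the control library and 9.68, 30.8 and 100.3 CPM in the OSA libraries.

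Without OSA replicate 2, the differences of Cfb (2.40), Opcml (1.91), Nav3 (1.13) and Tpm2 (-1.47) no longer passed the threshold. Of 14 alternatives, Plac8 was called in 11, Myh11 in 10, Cxcl13 and Cxcl9 in 9 and Cfb in 8. C4b and Hp were called in 7, Opcml in 6, Tpm2 in 5 and Nav3 in 4.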

How the results depend on the processing

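The 60 genes called between OSA and control became 7 with DESeq2's test, 20 without robust estimation, 34 with a minimum of 6 UMIs of the 4 genes, 25 with no limit on Saa3 and Serpina3n and 7 with barcodes thinned to 2000 UMIs. Without 1 OSA library in turn they ranged from 52 to 114. In alternatives chosen after seeing the data they were 12 with at most 1 UMI of Pecam1, Cdh5 and Ptprc, 17 with no limit on Tnmd and Thbs4, 4 among members with under 3 UMIs of the immune markers and 29 among members with no UMI of Saa3 and Serpina3n. Of the 7 genes called by DESeq2 and the 7 called on thinned barcodes, 7 were among the 60 in each case. The 31 genes that differed from Pi16-high fibroblasts became 18 with a mean of 10 or more counts, 17 with the minimum of 6 UMIs, 9 with no limit on Saa3 and Serpina3n and 4 with thinned barcodes, of which 0 were among the 31. They ranged from 12 to 56 without 1 OSA library in turn, and in the added alternatives were 3 with at most 1 UMI of Pecam1, Cdh5 and Ptprc, 8 with under 3 immune UMIs and 1 with no UMI of Saa3 and Serpina3n. On thinned barcodes the rule was applied again, so the members there were partly other barcodes. Thinned barcodes turned the sign of Masp1 (-0.10) and of the differences of Cxcl13 (-1.27), Opcml (-0.44) and Tpm2 (0.15). The cause was not tested. Over all alternatives, the log2 changes of named genes kept direction and side of the threshold in 315 cases, kept only direction in 226 and changed sign in 1. The difference in share stayed below 0 in the 12 alternatives, from -0.125 to -0.760 percentage points, except that it was -3.45 points as a share of stromal barcodes. Scaling by DESeq2 size factors gave 60 calls and a median change over all genes of 0.03.

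No paired analysis was possible because the groups compared share only replicate number 2. The single control library could not be left out. Depth limits genes with few UMIs in the control library, such as Spp1, Sfrp2, Masp1, Cfb and Hp.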
